A study of Mus musculus with 18 samples.

Results

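The location of RNA was compared between untreated BV2 cells (0 h) and BV2 cells kept for 24 h with 10 µM oxyhemoglobin. BV2 is an immortalised mouse microglial line, and oxyhemoglobin is the oxygenated blood pigment that microglia meet after bleeding into the brain. For each gene, the log2 ratio of nuclear to cytoplasmic RNA at 0 h was subtracted from the same ratio at 24 h. The result, the shift, is positive where RNA moved toward the nucleus and negative where it moved toward the cytoplasm. The rule took genes with a mean count of at least 10 in each of the 4 groups (nuclear and cytoplasmic, 0 h and 24 h), and 9487 of 55487 gene identifiers met it. The 4 groups held 3 libraries each, 12 of the 18 libraries of the series. The other 6 libraries came from both fractions after 12 h of the same treatment. All groups were the same line, and no untreated group was kept for 24 h, so treatment and time in culture cannot be told apart.

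An mRNA is made and spliced in the nucleus, leaves through nuclear pores, and is translated and degraded in the cytoplasm. The ratio of its nuclear to its cytoplasmic level therefore depends on synthesis, export and decay together. A gene switched on shortly before harvest can be nuclear because its transcripts have not yet left, and a stable housekeeping mRNA is mostly cytoplasmic. Small nucleolar RNAs work in the nucleolus, where they guide the modification and cutting of ribosomal RNA, and spliceosomal RNAs pass through the cytoplasm during their assembly before returning to the nucleus. In microglia, oxyhemoglobin brings heme and iron, and such cells are known to answer with heme oxygenase, antioxidant genes and inflammatory cytokines.

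The 2 nuclear groups summed to 14652566 counts at 0 h and 16031875 at 24 h, and the 2 cytoplasmic groups to 22379595 and 19537309. The deposited columns are means over the 3 libraries of a group, so no value below has a spread between libraries, and no test was possible. The labels do not say whether the 3 libraries came from separate cultures. The 95% intervals rest on the summed reads and cover counting error only. An unnamed nuclear gene, ENSMUSG00000118642, took 18.6% of nuclear counts at 0 h and 22.1% at 24 h. Of 18 microglia and macrophage markers, 9 met the rule, among them the lysozyme gene Lyz2 and the transcription factor Spi1. Ctss, the cathepsin S gene, was listed at 0 in all 4 groups, and Aif1, a calcium-binding protein, and C1qa, a complement subunit, stayed under a mean count of 10 in all of them. Of 26 markers of other brain cells, 19 stayed under a mean count of 10 in all 4 groups, as did 21 of 24 fibroblast and leukocyte markers and 10 of 11 erythroid markers. The exceptions included Flt1, with mean counts at 0 and 24 h of 1553 and 2195 in the nucleus and 3257 and 2668 in the cytoplasm. Mbp, Gad1, Acta2 and Alas2 reached 84.3, 78, 85.7 and 62 in their highest group. In whole-culture RNA, fewer cells with a transcript and less of it per cell cannot be told apart.

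At 24 h most RNAs had a higher nuclear share relative to the cytoplasm than at 0 h on the scale used here. The median shift was 0.39, with 5% of genes under −0.76 and 5% above 1.17, and 72.4% of genes were above 0. The median log2 ratio of nuclear to cytoplasmic RNA went from −1.12 at 0 h to −0.76 at 24 h, and it was −0.74 at 12 h. The ratios also lay closer together: their SD across genes was 2.06 at 0 h, 1.90 at 12 h and 1.74 at 24 h. A gene was called where its shift was at least 2-fold, a log2 value of 1, and its counting interval left out 0. By this rule 958 genes (10.1%) moved toward the nucleus and 227 (2.39%) toward the cytoplasm. The location plot shows both groups against the ratio in untreated cells.

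**Figure D1:**
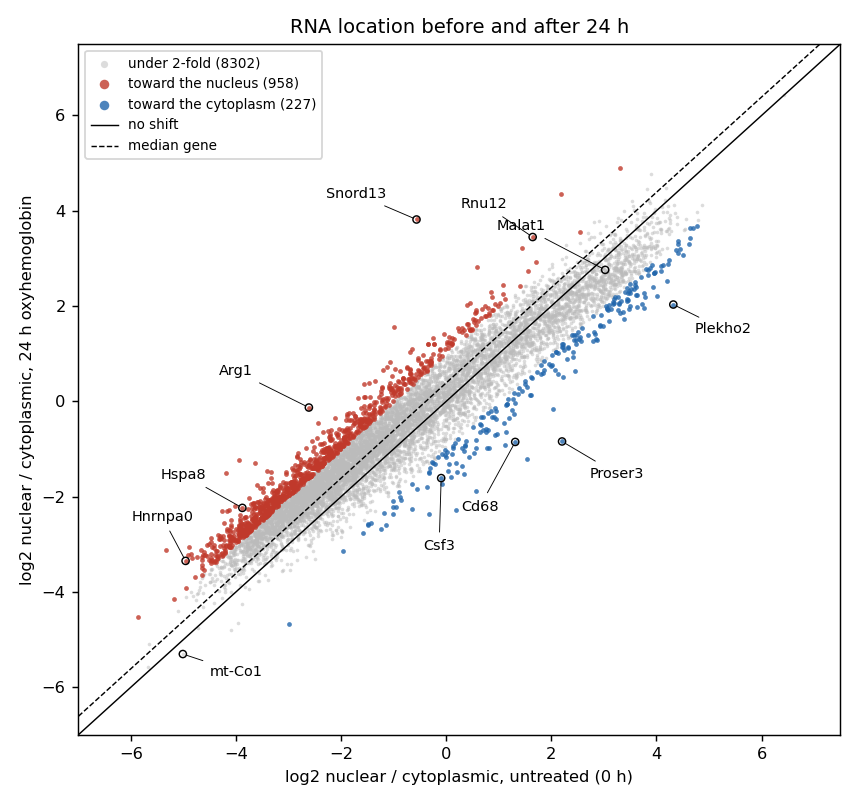
Log2 ratio of nuclear to cytoplasmic scaled counts of 9487 genes, untreated on the x axis and after 24 h of oxyhemoglobin on the y axis; each point is 1 gene from group means of 3 libraries. The 958 genes called toward the nucleus (red) lie mostly at negative ratios and the 227 called toward the cytoplasm (blue) mostly at positive ones, and the dashed line marks the median shift of 0.39.

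The balance of directions depended on how the fractions were scaled. Sequencing gives each RNA as a share of its own fraction, and the amount of RNA per nucleus or per cytoplasm was not measured here. The values above used the trimmed mean of M-values (TMM), which aligns the bulk of genes between columns. With total counts alone the median shift was −0.07, a move of 0.46, and 111 genes were called toward the nucleus and 844 toward the cytoplasm, so the nuclear share of calls was 11.6% in place of 80.8%. Total counts also place every log2 ratio 1.41 higher at 0 h and 0.96 higher at 24 h, so whether a ratio lies on the nuclear or the cytoplasmic side holds here for the TMM scale. Shifts are therefore also given relative to the median gene, which a change of scaling factor leaves as they are. Measured so, 167 genes (1.76%) lay at least 2-fold toward the nucleus and 698 (7.36%) at least 2-fold toward the cytoplasm, and the nuclear share of calls was 19.3%. Of the 958 genes called toward the nucleus, 167 kept their call relative to the median gene. The 227 called toward the cytoplasm keep theirs by construction, since the median is above 0.

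Small RNAs of the nucleolus and the spliceosome held the largest shift of the named genes. Snord13, the box C/D RNA U13, takes part in the acetylation of 18S ribosomal RNA. Its level in scaled counts per 1000000 (scaled CPM) was 3.20 in the untreated nuclear group and 87.1 in that at 24 h, against 4.74 and 6.18 in the cytoplasmic groups. Only the nuclear level at 24 h stood apart from the other 3, and the shift was 4.38 (interval 3.82 to 4.95). Snord118 (GRCm38, chromosome 11, 69073427 to 69073561, plus strand), the U8 RNA needed to release the 5.8S and 28S ribosomal RNAs, was at 18.4 scaled CPM in the untreated nuclear group and 116 at 24 h. In the cytoplasm it stood at 36.9 and 39.5, nearly level, for a shift of 2.56 (interval 2.33 to 2.78). Snord104 (chromosome 11, 106500993 to 106501062, plus strand), which guides methylation of 28S ribosomal RNA, was at 5.39 and 52.9 scaled CPM in the nucleus and at 3.61 and 7.49 in the cytoplasm. Both fractions were higher at 24 h and the nucleus more so, with a shift of 2.24 (interval 1.69 to 2.79). Rnu12 (chromosome 15, 83149644 to 83149794, plus strand) is U12, the RNA with which the minor spliceosome reads the branch site of its rare introns. It went from 17.5 to 607 scaled CPM in the nucleus and from 5.59 to 55.6 in the cytoplasm, for a shift of 1.80 (interval 1.44 to 2.17). The log2 ratios of Snord13, Snord118, Snord104 and Rnu12 were −0.57, −1.002, 0.58 and 1.64 at 0 h. At 24 h they were 3.82, 1.55, 2.82 and 3.45.

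The sequences of Snord118, Snord104 and Rnu12, from GENCODE M21 transcripts on GRCm38, are printed 5′ to 3′ in DNA letters. In the first 2, both nucleolar, capitals mark each match to TGATGA, part of the C box, and to CTGA, the D box. The motifs were searched on the RNA strand. No capitals were set in Rnu12, which also holds 1 CTGA, at base 101, but no TGATGA.
Snord118: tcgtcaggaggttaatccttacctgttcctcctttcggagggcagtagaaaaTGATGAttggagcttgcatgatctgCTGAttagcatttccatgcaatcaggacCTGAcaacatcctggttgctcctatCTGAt
Snord104: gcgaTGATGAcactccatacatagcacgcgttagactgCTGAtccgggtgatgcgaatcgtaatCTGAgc
Rnu12: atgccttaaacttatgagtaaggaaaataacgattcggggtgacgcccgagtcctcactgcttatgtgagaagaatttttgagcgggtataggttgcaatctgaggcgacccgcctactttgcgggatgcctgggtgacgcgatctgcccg
In both nucleolar RNAs the last CTGA ends within 2 bases of the 3′ end, and the TGATGA starts at base 53 in Snord118 and at base 5 in Snord104. Among the 18 small nucleolar RNAs compared, 6 held TGATGA and 12 held CTGA. Of 28 spliceosomal RNA genes, 0 held TGATGA and 22 held CTGA, so CTGA alone does not tell the classes apart. A match describes letters only.

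Not all small nuclear RNAs moved. Of 18 small nucleolar RNAs, 7 were called toward the nucleus and none toward the cytoplasm, and their median shift was 0.39, that of all genes. Besides Snord13, Snord118 and Snord104 these included Snora23 (2.17) and Snora30 (1.46), box H/ACA RNAs of ribosomal RNA pseudouridylation that lie inside other genes and are uncertain for this reason. Snord17 (uncertain) was at 0.40, Snora17 at −0.07 and Scarna2, a Cajal body RNA, at −0.47, all under 2-fold. Of 28 spliceosomal RNA genes, 9 were called toward the nucleus and 1 toward the cytoplasm. Over all genes the shares were 10.1% and 2.39%. Measured from the median gene, the calls were 6 and 1 for the small nucleolar and 4 and 2 for the spliceosomal RNAs. The shares of all genes measured so were 1.76% and 7.36%. Most spliceosomal RNA genes are near-identical copies that can share reads, so they were also summed by the 8 bases with which they start. The 6 copies that start with atacttac, as U1 does, had a summed shift of 1.10 (interval 1.00 to 1.21), with summed mean counts of 2094 and 9791 in the nucleus and 396 and 945 in the cytoplasm at 0 and 24 h. Their median shift was 0.35, and 1 copy was called, toward the nucleus. Gm22513 and Gm24305, with the most counts, were at 0.99 and 0.55, both under the summed value and under 2-fold. The 9 copies with the U2 start atcgcttc had a summed shift of 0.82 (0.75 to 0.89), the 2 with the U4 start agctttgc 1.04 (0.72 to 1.36), and the 6 with the U5 start atactctg 0.43 (0.26 to 0.59). Median shifts of the copies with the U2, U4 and U5 starts were 0.385, 0.906 and 0.15. Single copies ranged from −1.42 to 1.99. Rpph1, the RNA of ribonuclease P, was higher in both fractions (1.66 to 41.045 scaled CPM in the nucleus, 13.3 to 1049 in the cytoplasm) and was called toward the cytoplasm at −1.68, but it overlaps another gene and is uncertain. Tagmentation libraries take up RNAs of this length poorly, and whether their uptake differed between groups was not tested. At 12 h, with the untreated groups shared, the shifts of Snord13, Snord118, Snord104 and Rnu12 were 3.11, 2.11, 1.02 and 0.85.

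Eef1a1, Eef2, Rpl3 and Hspa8 were among the 15 coding genes whose counting intervals lay farthest toward the nucleus. Eef1a1 (chromosome 9, 78478449 to 78489151, minus strand), the factor that brings aminoacyl-tRNA to the ribosome, was at 541 scaled CPM in untreated and 595 in treated nuclei. In the cytoplasm it was at 11997 and 4591, so the cytoplasmic level was the one that differed, and the shift was 1.52 (interval 1.49 to 1.56). Eef2, the translocation factor, had 876 and 1587 scaled CPM in the nucleus and 17420.3 and 11814 in the cytoplasm. Here the nucleus was higher and the cytoplasm lower at 24 h, with a shift of 1.42 (interval 1.39 to 1.44). Rpl3 (chromosome 15, 80077791 to 80091868, minus strand), a core protein of the large ribosomal subunit, had similar nuclear levels (317 and 289), while its cytoplasmic level went from 1505 to 446 scaled CPM. Its shift was 1.62 (interval 1.56 to 1.68). Hspa8 (chromosome 9, 40800984 to 40810087, plus strand), the constitutive HSC70 chaperone, followed the same pattern, with 173 and 224 in the nucleus, 2548 and 1054 in the cytoplasm, and a shift of 1.64 (interval 1.58 to 1.71). Reads of Eef1a1, Rpl3 and Hspa8 can be shared with processed pseudogenes, which makes these values uncertain. The shifts at 12 h were 1.83, 1.40, 1.49 and 1.82 in this order.

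Other leading genes differed in which fraction moved. Arg1 (chromosome 10, 24915221 to 24927484, minus strand), arginase 1 of alternatively activated macrophages, had the largest shift toward the nucleus of the named coding genes at 2.48 (interval 1.98 to 2.99). Its cytoplasmic level went from 53.2 to 4.80 scaled CPM and its nuclear level from 8.68 to 4.38, so the gene was lower in both fractions and lost its cytoplasmic excess. Arf6 (chromosome 12, 69372150 to 69373783, plus strand), a small GTPase of membrane traffic, had a level cytoplasm (1402 and 1433 scaled CPM) and a nucleus that went from 48.6 to 154, for a shift of 1.64 (interval 1.54 to 1.74). Hnrnpa0, an RNA-binding protein of the hnRNP family, had the same form, with 40.9 and 112 in the nucleus, 1273 and 1139 in the cytoplasm and a shift of 1.61. Irf2bp1, a transcriptional corepressor, had 8.07 and 23.7 in the nucleus and 146 and 116 in the cytoplasm (shift 1.88). Tln1, which links integrins to actin, went from 357 to 517 in the nucleus and from 1643 to 781 in the cytoplasm (shift 1.61), so both fractions contributed. The same held for Snrnp200, the helicase that unwinds U4 from U6, at 1.56, and for the receptor gene Notch2 at 1.49. Cd93, a receptor linked to the clearance of dying cells, was at 1.43, with a nucleus near level (1052 and 940.3) and a cytoplasm that went from 4487 to 1485. Ppp1r9b (1.60), Wdr6 (1.55) and Ankrd50 (1.59) completed the 15 genes chosen by their counting interval. In the processed pseudogenes Pgam1-ps2 and Rpl3-ps1 the shifts were 2.70 and 1.45, and both may hold reads of their parent genes.

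**Figure D2:**
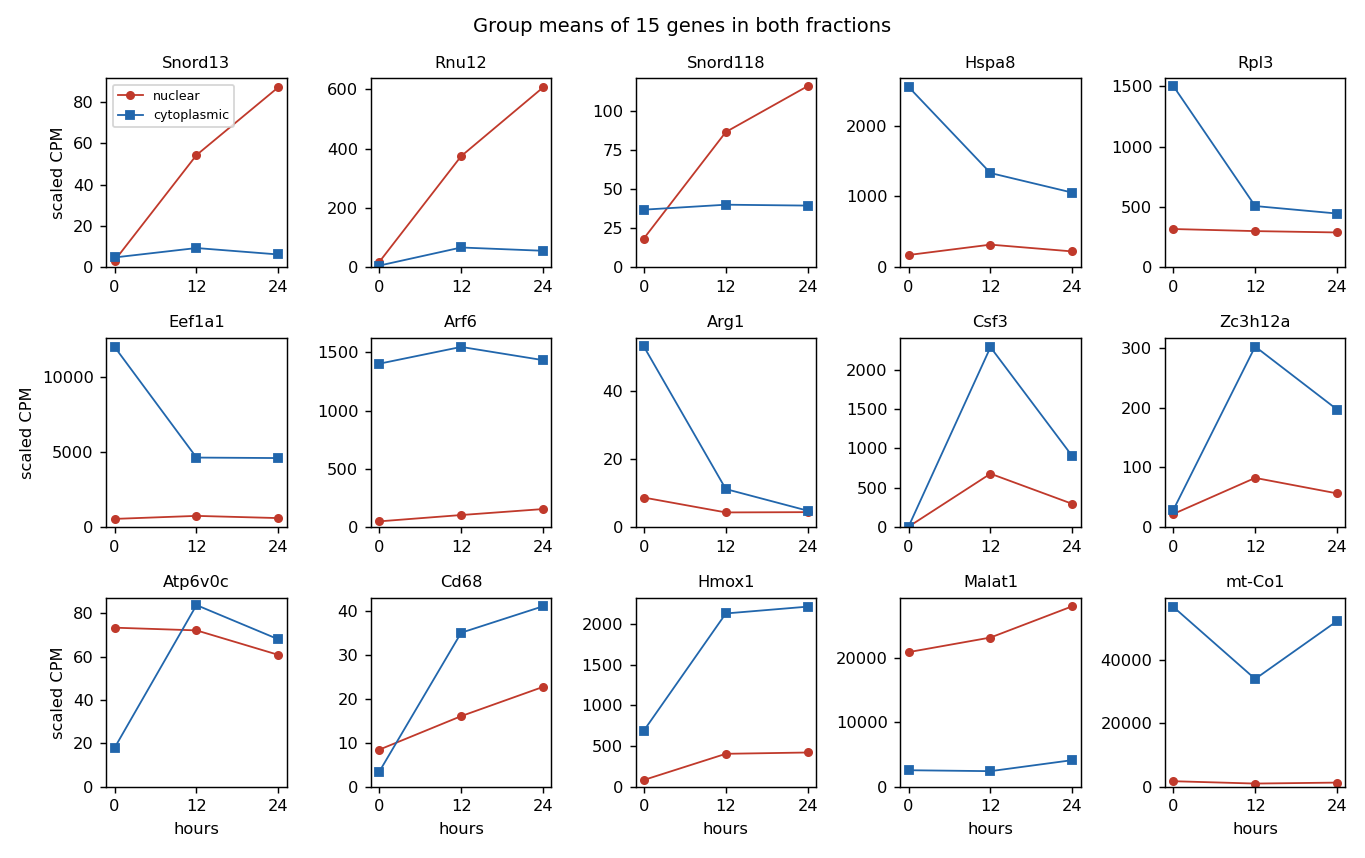
Scaled CPM (y axis, from 0) of 15 genes in the nuclear (red circles) and cytoplasmic (blue squares) group means at 0, 12 and 24 h (x axis), each mean over 3 libraries and without an error bar. Snord13, Rnu12 and Snord118 are higher in the nucleus at 12 and 24 h, Rpl3, Eef1a1, Hspa8 and Arg1 are lower in the cytoplasm, and in Cd68 and Atp6v0c the cytoplasmic level is the higher of the pair at 12 and 24 h but not at 0 h.

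Genes called toward the cytoplasm were fewer than those called toward the nucleus on the TMM scale, but more with total counts (844 against 111) and measured from the median gene (698 against 167). Their untreated cytoplasmic counts, which enter the shift, were low. Proser3 (chromosome 7, 30539134 to 30552299, minus strand) was at 10.1 and 19.5 scaled CPM in the nucleus and at 2.19 and 34.975 in the cytoplasm, and its log2 ratio went from 2.203 to −0.84 on the TMM scale, with a shift of −3.05 (interval −3.62 to −2.48). Mkrn1, a ubiquitin ligase, went from 8.03 to 3.29 in the nucleus and from 2.76 to 7.56 in the cytoplasm (shift −2.74, interval −3.40 to −2.08). Thoc5, a subunit of the THO complex that couples transcription to mRNA export, had a level nucleus (5.23 and 5.11) and a cytoplasm that went from 2.41 to 9.67, for a shift of −2.04. Zc3h12a (chromosome 4, 125118423 to 125127840, minus strand) encodes Regnase-1, an enzyme that cuts inflammatory mRNAs. It was higher in both fractions at 24 h, from 21.7 to 56.3 scaled CPM in the nucleus and from 28.1 to 197 in the cytoplasm, and its shift was −1.43 (interval −1.64 to −1.22). Other named genes on this side were Plekho2 (−2.29) and Plekho1 (−1.71), Tsc22d4 (−1.81), Cdk2ap1 (−1.79), Gdf11 (−1.62), a ligand of the TGF-beta family, Ada (−1.66), which deaminates adenosine, and Fxyd5 (−1.29), a sodium pump regulator. The median cytoplasmic mean count of the 227 genes was 16.7 at 0 h and 32.7 at 24 h, and 177 of them (78.0%) were under 30 at 0 h, against 20.3% of all genes compared. With a minimum of 30 counts in each group, 41 genes were called toward the cytoplasm and 698 toward the nucleus. Of the 227, 139 had at least 80% of their exonic bases outside other genes, and 755 of the 958 did.

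A nuclear and a cytoplasmic change enter each shift. Over all genes compared, the median nuclear change from 0 to 24 h was 0.10 and the median cytoplasmic change −0.18. In the 958 genes called toward the nucleus the medians were 0.69 and −0.50. Alone, 253 of them passed 2-fold only by a higher nuclear level and 214 only by a lower cytoplasmic level, while 464 passed in neither fraction and reached the call by the sum of both. In the 227 genes called toward the cytoplasm the median nuclear change was −0.42 and the cytoplasmic change 0.87. Of these, 76 passed only by a higher cytoplasmic level, 18 only by a lower nuclear level and 119 in neither. The median log2 ratio of the 958 went from −2.71 to −1.49 and that of the 227 from 2.01 to 0.67. Both ratios make up the shift by which these genes were called, so they describe the choice and show nothing further. At 12 h, against the same untreated groups, the medians of these genes' shifts were 1.04 and −1.004.

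**Figure D3:**
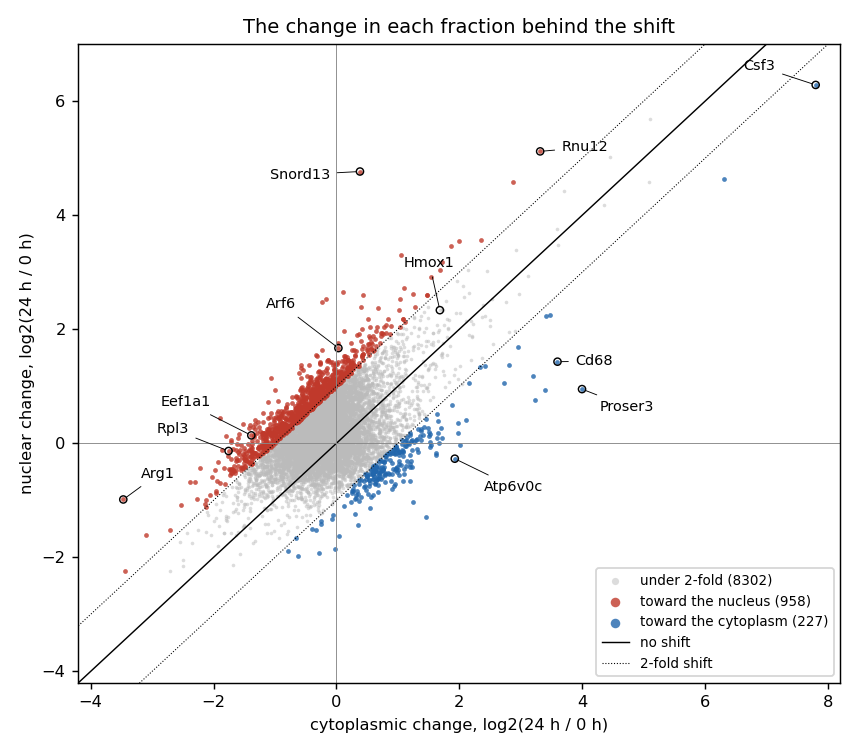
Log2 change from 0 to 24 h of each of 9487 genes in the cytoplasm (x axis) and the nucleus (y axis), from scaled group means; the solid line marks equal change and the dotted lines a 2-fold shift. Snord13 and Arf6 lie above the line by their nuclear change, Rpl3 and Eef1a1 by their cytoplasmic change, and Csf3 lies under it although both of its changes are the highest on the plot.

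The gene lists spread around the median gene. Of 32 lists with at least 5 members compared, 21 had a median above 0.39 and 11 below. The calls of each list are counts to be read against the 10.1% and 2.39% of all genes, and those measured from the median gene, where printed, against 1.76% and 7.36%. Shifts also differed with the ratio at 12 h. The median was 0.65 in the most cytoplasmic quartile of genes, with 17.5% called toward the nucleus, and −0.08 in the most nuclear, with 3.4%. Lists began at different ratios, with medians at 0 h of −3.73 for histones and 1.61 for splicing factors and hnRNPs. Whether a list differed from other genes of like ratio was not tested.

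Inflammatory cytokines and chemokines had the lowest median of all lists, −0.30 over 15 members, against 0.39 for all genes. Ccl2 (uncertain) was the 1 member called toward the nucleus, and Csf3, Il1rn and Ccl6 (uncertain) were the 3 called toward the cytoplasm, and measured from the median gene the counts were 0 and 5. Csf3 (chromosome 11, 98701263 to 98703629, plus strand), the granulocyte colony-stimulating factor, had 3.77 and 293 scaled CPM in the nucleus and 4.03 and 897 in the cytoplasm. Its log2 ratio was −0.10 at 0 h and −1.61 at 24 h, a shift of −1.51 (interval −1.99 to −1.04). Il1rn, the antagonist of the interleukin-1 receptor, went from 8.80 to 41.3 in the nucleus and from 11.042 to 118 in the cytoplasm, for a shift of −1.19 (interval −1.504 to −0.87). The chemokine genes Ccl3 (−0.94), Ccl4 (−0.30) and Ccl7 (−0.18) were below 0 and under 2-fold, and Ccl9 (0.44) and Osm (0.56) above it. Il1b, Il6 and Tnf did not meet the rule because their untreated groups were too low. Their mean counts at 0 h were 5 and 8 for Il1b, 8 and 1.33 for Il6, and 22.3 and 3.33 for Tnf in the nucleus and the cytoplasm. At 24 h they were 122 and 423 for Il1b, 115 and 23.7 for Il6, and 146 and 146 for Tnf. The 15 members compared are thus those with reads in untreated cells. Genes at least 4-fold higher in both fractions were 33, with a median shift of −0.00, and 3 were called toward the nucleus and 4 toward the cytoplasm. Over all genes the shares were 10.1% and 2.39%. Measured from the median gene the counts were 2 and 4, against 1.76% and 7.36% of all genes. These 33 genes were chosen by the changes that make up the shift, so the counts describe the choice.

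The receptors and enzymes of inflammation lay on the other side. Of 23 compared, 7 were called toward the nucleus and none toward the cytoplasm, or 1 and 1 measured from the median gene, with a median of 0.69. Besides Arg1 these included Tnfrsf1b, a receptor of tumour necrosis factor, which went from 148 to 569 scaled CPM in the nucleus and from 747 to 1301 in the cytoplasm (shift 1.14 (interval 1.07 to 1.20)). Il6ra, the interleukin-6 receptor, was lower in both fractions, 51.1 to 36.7 and 155 to 48.8, with a shift of 1.19. The inducible enzymes Nos2 (0.47, interval 0.09 to 0.84) and Ptgs2 (−0.00, −0.11 to 0.11) were not called. Ptgs2 was higher by the same amount in both fractions, 57.6 to 333 and 128 to 741 scaled CPM. NF-kB and AP-1 factors with their feedback regulators had 3 calls each way in 31 genes and a median of 0.28. Relative to the median gene, 0 were called toward the nucleus and 4 toward the cytoplasm. Tnfaip3, which encodes the A20 inhibitor of NF-kB, was at 1.20 (interval 0.77 to 1.64), and Maff (−1.06) and the phosphatase gene Dusp16 (−1.04) were on the cytoplasmic side with Zc3h12a. Type I interferon genes had 5 of 34 toward the nucleus and 1 toward the cytoplasm (median 0.61), or 1 and 2 measured from the median gene. The 5 included the peptide transporter gene Tap1 (1.30), the transcription factor gene Stat2 (1.24) and Oas3 (1.05). Sp100, of the nuclear bodies, was the 1 interferon gene with a shift of at least 2-fold toward the cytoplasm (−1.57).

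The genes of heme and oxidative stress lay near the median gene. Of 31 heme and iron genes, 5 were called toward the nucleus and 3 toward the cytoplasm (median 0.44). Measured from the median gene the counts were 0 and 3. Hmox1 (chromosome 8, 75093621 to 75100589, plus strand), which breaks down heme, was higher in both fractions, from 83.6 to 421 scaled CPM in the nucleus and from 689.9 to 2213 in the cytoplasm. Its ratio went from −3.04 to −2.39, a shift of 0.65 (interval 0.57 to 0.73) that was not called. Toward the nucleus were Slc48a1 (1.32), which carries heme out of lysosomes, Fech (1.35), which inserts iron into heme, the heme-hemopexin receptor gene Lrp1 (1.05), the metal importer gene Slc39a14 (1.06) and Pcbp1 (1.07), an iron chaperone. Toward the cytoplasm were Glrx5 (−1.16) of iron-sulphur cluster assembly, the heme exporter gene Flvcr1 (−1.04) and Pcbp2 (−1.07, uncertain). NRF2 targets had 2 of 29 toward the nucleus and none toward the cytoplasm (median 0.47), or 0 and 2 measured from the median gene. The 2 toward the nucleus were Cat, catalase (1.17), and Bach1 (1.07), which encodes a heme-sensing repressor. Slc7a11, the cystine importer, was under 2-fold at 0.86 (interval 0.82 to 0.91), with 337 and 1582 in the nucleus and 1119 and 2888 in the cytoplasm. Nqo1 did not meet the rule, with mean counts of 5 and 3.67 at 0 h and 8.33 and 38 at 24 h.

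The lists of cell housekeeping had higher medians. Replication-dependent histones, whose mRNAs lack a poly(A) tail, had the highest at 0.86, with 11 of 52 toward the nucleus and none toward the cytoplasm. Measured from the median gene these counts were 0 and 1, and 47 of 52 lay above it. Hist2h4 went from 269 to 461 scaled CPM in the nucleus and from 4164 to 3233 in the cytoplasm (shift 1.14 (interval 1.09 to 1.19)), and Hist1h1b was at 1.06. Histone genes are near-identical copies and 13 of the 52 overlapped other genes, so single values are uncertain. Cytosolic ribosomal proteins had a median of 0.58, with 8 of 64 toward the nucleus and 1, Rps26 (−1.07), toward the cytoplasm, or 2 and 3 measured from the median gene. Beside Rpl3, Rpl10 (1.28) and Rpl15 (1.39) were called. Translation factors had 8 of 49 toward the nucleus and none toward the cytoplasm (median 0.60), or 3 and 2 measured from the median gene, with Eif2s3x (1.34) after Eef1a1 and Eef2. Cytosolic housekeeping genes had a median of 0.76 and 3 of 22 called toward the nucleus, of which Tubb5 (1.30) and Actg1 (1.15) encode a tubulin and an actin. Actb was at 0.80, and none of the 22 was called relative to the median gene. Gapdh was at −0.08 with a nuclear ratio at both times (1.54 and 1.46), and it has many pseudogene copies that can take its reads. Heat shock proteins had 3 of 26 (median 0.55), or 1 each way measured from the median gene, with Hsp90ab1 at 1.16 and Hspd1, the mitochondrial HSP60, at 1.02.

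Secretory, lysosomal and lipid genes followed. ER chaperones had 5 of 30 toward the nucleus and none toward the cytoplasm (median 0.72), with 0 each way measured from the median gene, with P4hb (1.23) and Pdia4 (1.02), both protein disulphide isomerases, and Hyou1 (1.14). Lysosome and phagocytosis genes had 7 of 43 toward the nucleus and 2 toward the cytoplasm (median 0.74), or 1 and 3 measured from the median gene. The cathepsin B gene Ctsb was at 1.09 (interval 1.07 to 1.11), with 1562 and 2778 scaled CPM in the nucleus and 8547 and 7124 in the cytoplasm, and Man2b1, a lysosomal mannosidase, at 1.20. The 2 on the cytoplasmic side had the lowest shifts of any list member. Atp6v0c (chromosome 17, 24163866 to 24169702, minus strand), a membrane subunit of the lysosomal proton pump, had 73.4 and 60.8 in the nucleus and 17.9 and 67.987 in the cytoplasm, a shift of −2.20 (interval −2.42 to −1.97). Cd68 (chromosome 11, 69664213 to 69666153, minus strand), a macrophage lysosomal glycoprotein, had 8.44 and 22.7 and 3.40 and 41.1, a shift of −2.17 (interval −2.65 to −1.68). Its untreated cytoplasmic level, a mean of 16 counts, was the lowest of the 9 microglia and macrophage markers compared. Markers that did not meet the rule included lower ones, such as Csf1r at 4.33. Lyz2 moved the other way, at 1.30 (interval 1.27 to 1.32). Cholesterol and fatty acid synthesis had 2 of 22 toward the nucleus (median 0.67), namely Stard4 (1.22), a sterol carrier, and the desaturase gene Scd2 (1.08). Glycolysis had 4 of 23 (median 0.69), with the hexokinase gene Hk2 at 1.20. Liver X receptor genes had 1 of 12 (median 0.79), Lpcat3 at 1.18, and 10 of the 12 lay above the median gene. Relative to it, calls toward the nucleus and the cytoplasm were 0 and 1 for this list. They were 0 and 0 for cholesterol and fatty acid synthesis, and 1 and 0 for glycolysis.

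**Figure D4:**
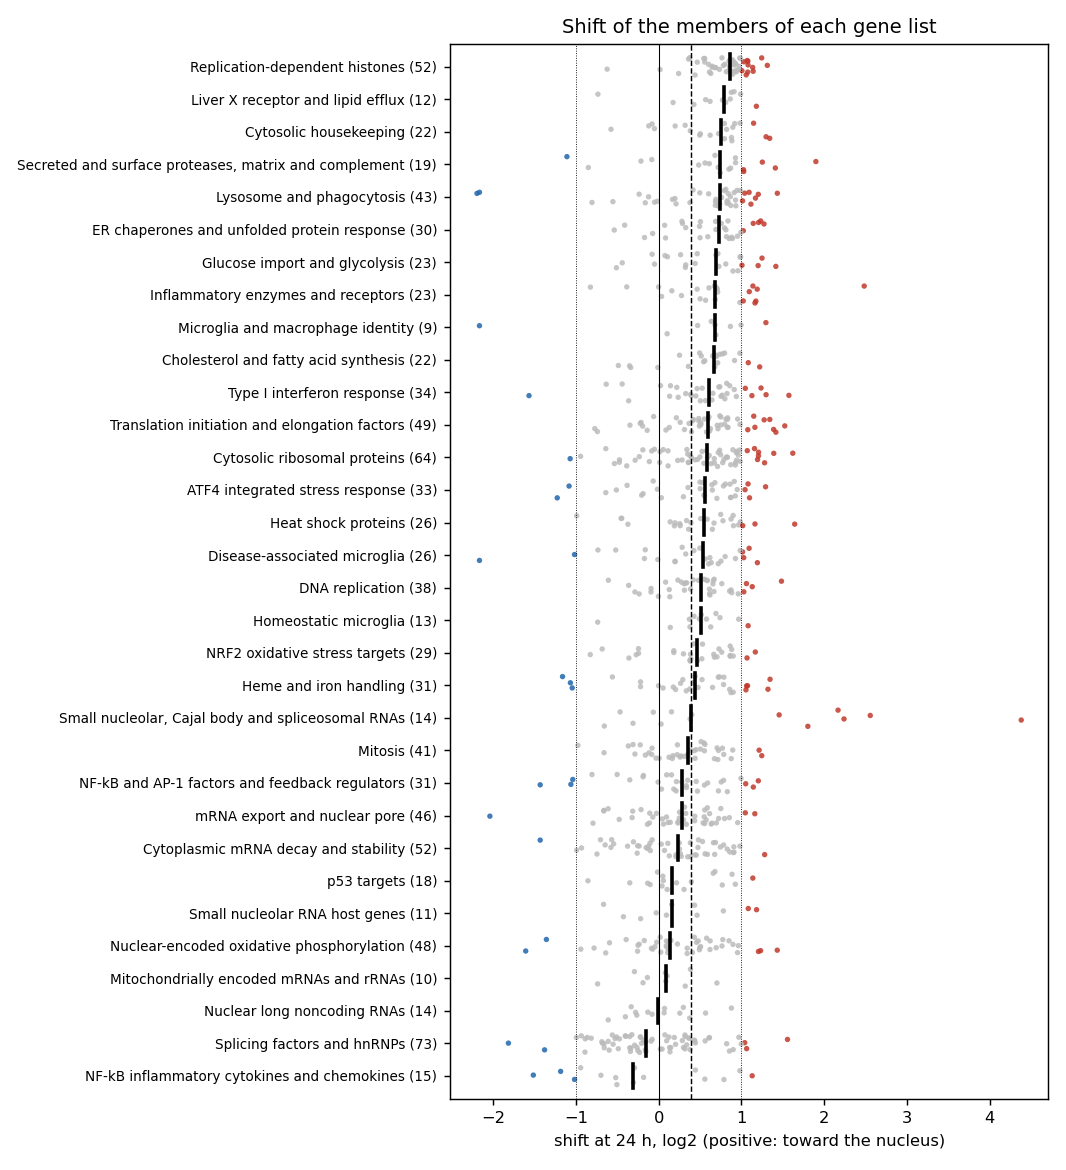
Shift at 24 h (x axis, log2, positive toward the nucleus) of each member of the 32 gene lists with at least 5 members compared (rows, number of members in brackets, vertical jitter only for display); black bars are list medians, the dashed line the median of all genes and the dotted lines 2-fold. Histones have the highest median at 0.86 and inflammatory cytokines and chemokines the lowest at −0.30.

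Lists of microglial state and of other functions were mixed. The 13 homeostatic microglia genes compared had a median shift of 0.52. Disease-associated microglia genes had 4 of 26 toward the nucleus and 2 toward the cytoplasm (median 0.53), with Ctsz (1.01) and Timp2 (1.03) against Cd68. Proteases, matrix and complement genes had 5 of 19 toward the nucleus and 1 toward the cytoplasm (median 0.74). Thbs1, the matrix protein thrombospondin 1, was at 1.90 (interval 1.32 to 2.48) from low levels (3.41 and 8.54 in the nucleus, 7.15 and 4.80 in the cytoplasm), the complement gene C3 at 1.41 and the integrin gene Itgb7 at 1.25. Adam17, the enzyme that sheds tumour necrosis factor, was at −1.11. ATF4 targets had 4 of 33 toward the nucleus and 2 toward the cytoplasm (median 0.55), with Ddit4 at 1.29 and Slc7a1 at 1.08 against Ddit3 at −1.08 and Slc3a2 at −1.23. DNA replication had 4 of 38 (median 0.52), with Gins3 at 1.13, and mitosis 2 of 41 (median 0.35), namely Mki67 (1.25) and Plk1 (1.21). The p53 targets had 1 of 18, the cell death gene Bbc3 (1.14). Relative to the median gene, calls toward the nucleus and the cytoplasm were 0 and 3 for disease-associated genes. They were 2 and 2 for proteases, matrix and complement, and 0 and 3 for ATF4 targets. For DNA replication they were 1 and 0, for mitosis 0 and 2, and for p53 targets 0 and 1.

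Several lists of RNA processing, and that of oxidative phosphorylation, had medians below that of all genes. Splicing factors and hnRNPs, many of which keep unspliced or retained-intron transcripts, had a median log2 ratio of 1.61 at 0 h. Their median shift was −0.16, and of 73 genes 3 were called toward the nucleus and 2 toward the cytoplasm, or 1 and 12 relative to the median gene. Hnrnph1 (41.5 and 11.6 scaled CPM in the nucleus, 3.04 and 2.98 in the cytoplasm) was at −1.82 (interval −2.46 to −1.17) and Prpf38b at −1.38, against Snrnp200, Snrpb (1.06) and Hnrnpa3 (1.04). Genes of mRNA export and the nuclear pore had 2 of 46 toward the nucleus, Ddx19b (1.16), a helicase at the pore's outer face, and the importin gene Kpnb1 (1.05), and Thoc5 toward the cytoplasm (median 0.28). Genes of cytoplasmic mRNA decay had Smg8 (1.28) on the nuclear and Zc3h12a on the cytoplasmic side of 52 (median 0.23). Small nucleolar RNA host genes had 2 of 11 toward the nucleus (median 0.16), among them Zfas1 (1.08). Nuclear-encoded oxidative phosphorylation had 3 of 48 toward the nucleus and 2 toward the cytoplasm (median 0.14), with Atp5a1 (1.43), Uqcrfs1 (1.23) and Uqcrc1 (1.21) against Ndufc2 (−1.61) and Sdhc (−1.36). Relative to the median gene, its calls toward the nucleus and the cytoplasm were 1 and 5. They were 0 and 4 for export and the nuclear pore, 0 and 6 for decay, and 0 and 1 for the host genes.

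Of the 3 lists that mark a compartment, the nuclear and the mitochondrial one had near-equal median ratios at both times and the cytosolic one did not. The 14 nuclear long noncoding RNAs compared had a median log2 ratio of 2.93 at 0 h and 2.85 at 24 h, and none was called. Malat1, an abundant RNA of nuclear speckles, was at 20866 and 27985 scaled CPM in the nucleus and 2566 and 4134 in the cytoplasm, a shift of −0.26 (interval −0.28 to −0.24). Neat1, the scaffold of paraspeckles, was at 0.07 at 24 h, under 2-fold, and at 1.18 at 12 h. Xist was at −0.13 (uncertain, since it lies within the span of another gene). The 10 mitochondrially encoded RNAs, made and kept in mitochondria, had a median ratio of −3.66 and −3.67, and none was called. Among them mt-Co1 was at −0.29 (interval −0.32 to −0.27), from mt-Nd4 at −0.74 to mt-Nd6 at 0.70. The 22 cytosolic housekeeping genes had a median ratio of −2.98 at 0 h and −2.25 at 24 h. Whether carry-over between fractions differed between 0 and 24 h was not tested. Under total-count scaling the shifts of these lists would all be lower by 0.46, as for every gene.

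The shift differed with the ratio at 12 h. To use libraries that are in neither side of the shift, genes were split into quartiles by their ratio at 12 h. The median shift was 0.65 in the most cytoplasmic quartile, 0.50 and 0.34 in the next, and −0.08 in the most nuclear one. The share called toward the nucleus was 17.5%, 11.6%, 7.89% and 3.41% in the same order, and that toward the cytoplasm 0.80%, 1.77%, 2.32% and 4.68%. Short protein-coding genes were called toward the nucleus more often than long ones, 16.3% of the shortest 1588 (genomic length up to 9104 bases) against 6.93% of the longest 1588 (from 68664 bases). Short genes were also the more cytoplasmic, with median ratios of −2.03 and −0.72 at 0 h. For lengths and exons, the 4 quartiles of the 12 h ratio were set again among protein-coding genes alone. From the most cytoplasmic of these to the most nuclear, the share of short genes was 21.1%, 16.2%, 13.3% and 6.70%. That of long genes was 12.99%, 10.6%, 5.54% and 2.97%. Median shifts in the same order were 0.685, 0.561, 0.493 and 0.194 for short genes and 0.642, 0.556, 0.324 and −0.091 for long ones. In the 2 most cytoplasmic quartiles the medians were thus near-equal, although the shares called differed. Exon number gave no such order in the shares. Single-exon genes were called toward the nucleus in 51 of 183, 14 of 103, 3 of 100 and 5 of 136 cases in these quartiles (27.9%, 13.6%, 3% and 3.68%), and genes of 9 to 20 exons in 14.5%, 11.2%, 8.26% and 3.59%, so the single-exon share was the higher in the first quartile and the lower in the third. Processed pseudogenes were called toward the nucleus in 98 of 378 cases (25.9%, median 0.64) and toward the cytoplasm in 14 (3.70%). Over all genes the shares were 10.1% and 2.39%. Measured from the median gene the counts were 35 and 27, against 1.76% and 7.36% of all genes. Whether the reads of these pseudogenes came from the parent genes was not tested. Transcripts annotated within introns had a median shift of −0.48, with 0 of 38 called toward the nucleus and 4 toward the cytoplasm. Measured from the median gene these counts were 0 and 13. Median shifts by chromosome ran from 0.28 on chromosome 12 to 0.51 on chromosome 4.

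**Figure D5:**
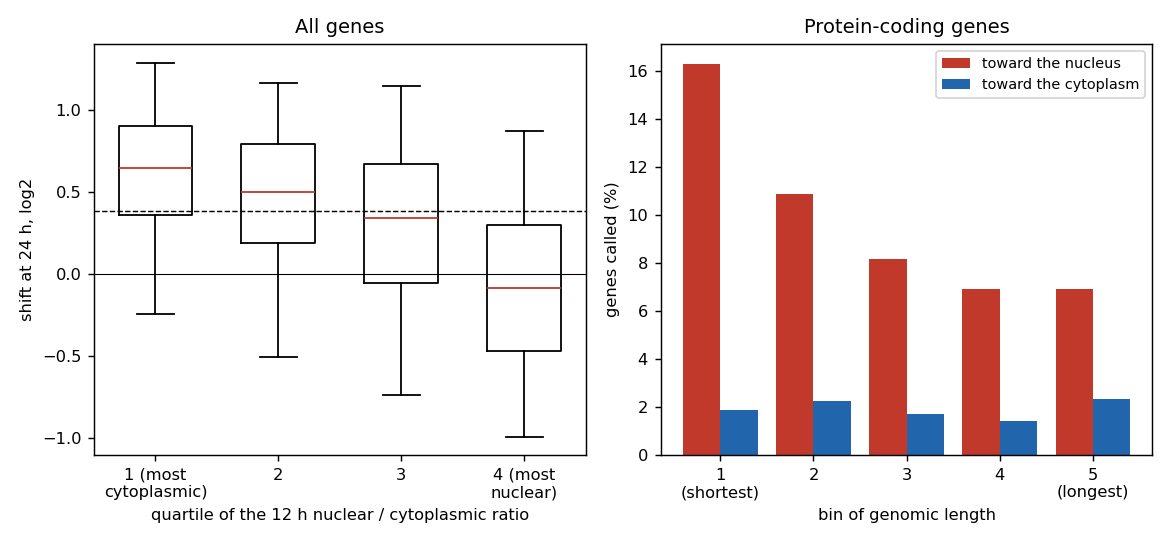
Left, shift at 24 h (y axis, log2) of all genes by quartile of the nuclear to cytoplasmic ratio at 12 h, with the median in red, boxes from the 25th to the 75th and whiskers from the 5th to the 95th percentile of genes, and the dashed line at the median of all genes. Right, percent of protein-coding genes called in each direction in 5 bins of genomic length; the medians at left fall from 0.65 to −0.08, and the nuclear share at right is 16.3% in the shortest and 6.93% in the longest bin.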

How the data were processed

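RNA sequencing of nuclear and cytoplasmic fractions of BV2 cells was analysed from 1 deposited table of counts and 6 deposited tables of TPM, a unit scaled by gene length and depth. Per the labels' protocols, a hypotonic buffer with NP-40 opened the cells, nuclei were spun down and washed, and a tagmentation kit gave the libraries. Per the submitters' processing notes, HISAT2 2.2.0, featureCounts and DESeq2 were used, with the build GRCm38. Whether counting used strand, and with which annotation, is not given in the sources. The 6 columns of the deposited table hold estimated counts in that each value is a group mean: multiplied by 3, every value was whole within 0.001, while 28.1% to 34.9% of values per column were not whole. The deposited TPM values, 1 column per group, served as an alternative. Planned tests across libraries were replaced by counting intervals for this reason. The number of per-sample columns left unused was 0.

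Scaling factors were TMM over all 6 columns (edgeR 4.0.16, calcNormFactors only, R 4.3.3). Shifts were computed in Python 3.11.15 with numpy 2.4.6 and pandas 2.3.3, and figures drawn with matplotlib 3.10.9. The 95% interval of a shift is a normal approximation from the summed reads (3 times the mean). It was tried on counts simulated with counting error only, the error it assumes. That trial therefore could not show how the interval does with differences between libraries. Depths and the half-width of the interval (median 0.32) limit the precision. Scaled CPM are means per 1000000 scaled counts and are not divided by gene length. Symbols, positions and classes came from GENCODE M21 on GRCm38, in which 9476 of the 9487 genes had an entry. A gene is uncertain where under 80% of its exonic bases lie outside every other gene.

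The 36 gene lists, the naming rule and the members were chosen with earlier results of these data known. Named were, among plain symbols that are not uncertain, the 15 coding and 6 noncoding genes each way with the interval bound farthest from 0, up to 3 called members each way of each list with at least 5 members compared, and 15 fixed genes. No noncoding gene called toward the cytoplasm met this rule. Further genes named in the text (Ccl3, Ccl4, Ccl7, Ccl9, Osm, Fech, Slc39a14, mt-Nd4, mt-Nd6, cell type markers, small RNAs and those marked uncertain) were chosen after their values were seen. The alternatives tried were other scalings, TPM, other count minimums, an overlap filter and other call rules. Some items are not reported here.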

Additional observations from a re-analysis of the deposited data

How the results depend on the processing

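No paired analysis was possible because the deposited columns are group means, and for the same reason no library could be left out and the planned replicate block was not run. The main counts were 958 genes toward the nucleus and 227 toward the cytoplasm. TMM over the 4 columns gave the same counts but is no check. It changed the scale of all 4 groups by the same factor, so every shift stayed as it was. Calls at 2-fold without an interval were also 958 and 227. Every gene that passed 2-fold had an interval that left out 0, so the interval removed no call. The main counts stayed within 1.5 times under median-of-ratios scaling (894 and 243) and TMM within each fraction (726 and 286). The main counts also did so without the most abundant nuclear gene (1003 and 221). They were 111 and 844 with total counts, 315 and 208 with TPM and a pseudocount of 1, 456 and 332 with TPM and a pseudocount of 0.1, 698 and 41 with a minimum count of 30, 1621 and 1422 with no minimum, 755 and 139 for genes at least 80% outside other genes, 3331 and 702 at 1.5-fold, and 167 and 698 measured from the median gene, the last added after seeing the data. Fewer or more genes were compared in the 3 settings that change the gene set; for the others the cause was not tested.

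Measured from the median gene, the counts of 167 and 698 were 137 and 385 with TPM and a pseudocount of 1, 40 and 275 with the minimum of 30, 940 and 1913 with no minimum, 96 and 497 with the overlap filter, and 1073 and 1716 at 1.5-fold. Of 78 named genes called toward the nucleus, 19 kept the call with total counts, 39 with TPM and a pseudocount of 1, 75 with median of ratios and 63 with TMM within each fraction. Of the 28 called toward the cytoplasm, 3 lost it with TPM, and no named call changed sign there; a change of scaling moves every gene by one amount, too small here to change a called sign, and total counts can only add calls toward the cytoplasm. Other scaling factors cannot change the distance of a list from the median gene, so they are no check of it. Of 32 lists, 21 lay above the median gene in the main analysis. With TPM and a pseudocount of 1 and with the minimum of 30 the number was 20, and with the overlap filter 21. Heme and iron handling went from 0.05 above the median gene to −0.01 with TPM and −0.05 with the minimum of 30. That minimum also moved small nucleolar RNA host genes from −0.23 to 0.30 and small nucleolar, Cajal body and spliceosomal RNAs from 0.00 to −0.52. Counting depth limits the call most for genes near 10 counts, and nuclear or cytoplasmic RNA amounts were not measured.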

Other observations

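Many genes could not be compared because one fraction held too few reads. The minimum count was met in both nuclear groups but not in all 4 groups by 5695 genes. It was met in both cytoplasmic groups but not in all 4 by 659. The 5695 include genes low in the cytoplasm at 1 time only, such as Tnf (3.33 at 0 h and 146 at 24 h). They are therefore not a count of RNAs found almost wholly in the nucleus. Of the classes other than protein-coding with at least 100 genes compared, processed pseudogenes lay above the median gene (0.64) and lincRNAs, antisense RNAs, processed transcripts (0.03) and TEC genes below it. The smaller classes of spliceosomal and small nucleolar RNAs had medians of 0.46 and 0.39. The 249 lincRNAs had a median shift of 0.10, with 11 called toward the nucleus and 7 toward the cytoplasm, and the 227 antisense RNAs a median of 0.07, with 16 and 11. The 325 genes of the annotation class TEC, of unknown coding status and mostly nuclear (median log2 ratio 2.85 at 0 h and 2.36 at 24 h), had a median of −0.23, with 12 and 26. Toward the nucleus these were 4.42%, 7.05% and 3.69% of the 3 classes, against 10.1% of all genes. Toward the cytoplasm they were 2.81%, 4.85% and 8.0%, against 2.39%. Measured from the median gene, the calls were 1 and 30 for lincRNAs, 5 and 38 for antisense RNAs and 2 and 70 for TEC genes. The shares of all genes measured so were 1.76% and 7.36%. The counting's strand setting is not known here, so reads of antisense RNAs cannot be told from those of their partners.

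Genes lower by at least 2-fold in both fractions were 75, with a median shift of 0.37, near the 0.39 of all genes. Of these, 6 were called toward the nucleus and none toward the cytoplasm, to be read against 10.1% and 2.39% of all genes. Measured from the median gene the counts were 2 and 0, against 1.76% and 7.36%. The genes were chosen by the 2 changes that make up the shift, so the counts describe the choice.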
